A study of Mus musculus with 24 samples.

Results

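The genes described here are 60 G2 and mitosis genes, chosen by name from a list, and all 60 were found among the 45237 genes counted in natural killer (NK) cells of tumor-bearing mice. All 60 passed the filter on low counts, which left 17097 genes to test. NK cells were sorted from the spleen of wild-type C57BL/6J mice, and their polyA RNA was sequenced in 24 libraries of 7 groups. Control mice carried no tumor (4 libraries). The other mice carried RMA, a T cell lymphoma line of the same strain, or RMA-KR, a derivative that lacks B2m, and with it surface MHC class I, and carries the NKG2D ligand Rae1-β. Per the study's methods, both lines express the fluorescent protein ZsGreen. RMA-KR was grown from 1 clone, so the tumor label cannot be told apart from that clone. NK cells of RMA-bearing mice were collected at day 2 (RMA early, 3 libraries), day 4 (RMA intermediate, 3 libraries) and day 9 (RMA late, 3 libraries). Those of RMA-KR-bearing mice were collected at day 2 (RMA-KR early, 3 libraries), day 7 (RMA-KR intermediate, 5 libraries) and day 14 (RMA-KR late, 3 libraries). The stages therefore match in days at the early stage and not at the intermediate and late stages, where tumor and day cannot be told apart. The study's methods give young adult females as the default, and the labels give neither age nor sex. The comparisons ask when these genes were higher than in control NK cells, and whether this differed between the 2 tumors.

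A cell that divides copies its DNA in S phase, prepares in G2 and separates its chromosomes in mitosis. The G2 and mitosis genes are silent or low in resting cells and are transcribed late in the cycle, many of them through promoters that hold a cell cycle genes homology region (CHR) and CCAAT boxes, where the MuvB complex with B-MYB and FOXM1, and the factor NF-Y, bind. Mature NK cells of a healthy spleen mostly rest, and they divide when cytokines or activating receptors drive them.

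Promoter sequences are shown here because the CHR is the element these genes are known to share. Promoters of 50 of the 60 genes were matched by symbol in RefSeq (GRCm38.p6, which is mm10), as 52 windows from 250 bases before to 50 bases after the annotated start. The windows of 8 genes are printed from 130 bases before the start to base 10 of the transcript, for the kinase subunit Cdk1, its cyclins Ccnb1 and Ccnb2, the proliferation marker Mki67, the topoisomerase Top2a, the anaphase-promoting complex activator Cdc20 and its ubiquitin-conjugating enzyme Ube2c, and the phosphatase Cdc25b, which did not rise. Capitals mark TTTGAA or its reverse complement TTCAAA (the CHR), the variant TTTAAA, and CCAAT or its reverse complement ATTGG (the CCAAT box). No base of these windows lies in 2 motifs.
Cdk1, chr10:69352903-69353042, minus strand: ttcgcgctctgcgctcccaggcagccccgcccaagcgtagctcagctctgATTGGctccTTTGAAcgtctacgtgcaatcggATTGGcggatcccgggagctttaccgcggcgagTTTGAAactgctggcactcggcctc
Ccnb1, chr13:100786477-100786616, minus strand: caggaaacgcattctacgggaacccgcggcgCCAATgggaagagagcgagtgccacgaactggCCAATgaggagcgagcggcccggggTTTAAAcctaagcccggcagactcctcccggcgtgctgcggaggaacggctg
Ccnb2, chr9:70421545-70421684, minus strand: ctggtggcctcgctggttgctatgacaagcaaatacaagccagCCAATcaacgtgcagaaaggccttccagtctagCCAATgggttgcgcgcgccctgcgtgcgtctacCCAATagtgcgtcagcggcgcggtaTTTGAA
Mki67, chr7:135716370-135716509, minus strand: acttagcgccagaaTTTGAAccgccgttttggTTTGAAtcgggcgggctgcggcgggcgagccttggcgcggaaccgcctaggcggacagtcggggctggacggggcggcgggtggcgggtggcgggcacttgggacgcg
Top2a, chr11:99024180-99024319, minus strand: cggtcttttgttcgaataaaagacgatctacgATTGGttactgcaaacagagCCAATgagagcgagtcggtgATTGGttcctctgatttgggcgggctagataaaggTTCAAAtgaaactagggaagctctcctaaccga
Cdc20, chr4:118437334-118437473, minus strand: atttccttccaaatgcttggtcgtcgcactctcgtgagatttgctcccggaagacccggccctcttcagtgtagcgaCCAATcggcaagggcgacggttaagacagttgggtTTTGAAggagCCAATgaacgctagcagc
Ube2c, chr2:164769799-164769938, plus strand: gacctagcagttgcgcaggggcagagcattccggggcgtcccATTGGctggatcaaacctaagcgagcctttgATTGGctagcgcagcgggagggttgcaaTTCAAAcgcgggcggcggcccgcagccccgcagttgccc
Cdc25b, chr2:131186818-131186957, plus strand: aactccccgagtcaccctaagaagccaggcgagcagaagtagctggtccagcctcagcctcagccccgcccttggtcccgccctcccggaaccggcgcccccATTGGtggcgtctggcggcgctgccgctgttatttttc

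In these windows Cdk1 and Mki67 hold 2 TTTGAA each, Ccnb1 holds TTTAAA in place of TTTGAA, and Cdc25b holds neither. Over the full windows, TTTGAA on either strand was found in 78.8% of the 52 promoters, against 17.9% of all 32851 RefSeq promoters of the same length. Within 50 bases of the start it was found in 71.2% of the promoters of the 60 genes and in 4.94% of all promoters. At least 1 CCAAT box was found in 76.9% against 37.4%, and a CCAAT box together with TTTGAA in 67.3% against 6.95%. The median GC content was 58.8% in the promoters of the 60 genes and 52.7% in all promoters. The share with TTTGAA was 40.7% in a list of 59 further G2 and mitosis genes and 11.4% in a list of 38 S phase genes, and a CCAAT box was found in 34 of 54 and 21 of 35 of their promoters. Many of the matches lay at or after the annotated start: in the bases before the start alone, 38.5% of the promoters held TTTGAA, against 16% of all promoters. These are matches of letters, and no binding was measured.

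**Figure D1:**
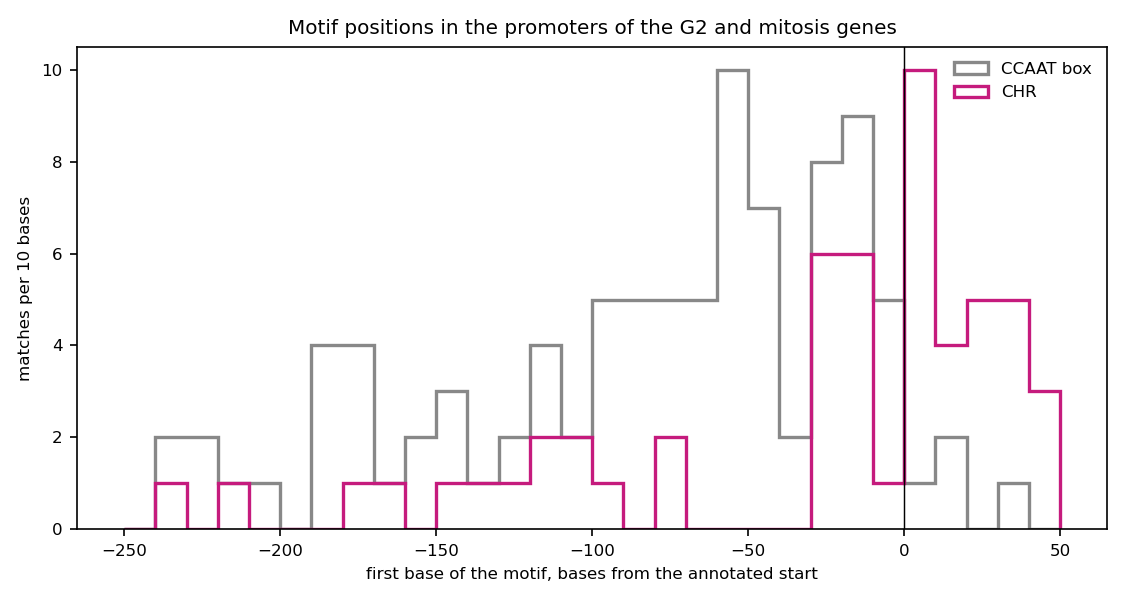
Positions of the CHR (TTTGAA, either strand) and the CCAAT box in the 52 promoters, as matches per 10 bases against distance from the annotated start. CHR matches are densest within 50 bases of the start, where 71.2% of the promoters hold one, and CCAAT boxes lie mostly before it.

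Libraries held 5138651 to 14863500 counts on genes (median 10489204), of which 6551 to 122612 fell on the 60 genes. Levels are given as normalized CPM, which are counts scaled to a common library size by TMM. The labels number the libraries and do not say whether each came from a separate mouse. The study counts its sequenced late and control groups in mice, with fewer control mice than control libraries here, and the sources used here do not say this of the early and intermediate groups, so p-values measure the spread between these libraries, which may be technical there. Replicate libraries differed by more than counting error, with a chi-square per degree of freedom of 15.9 to 91.4 over 31 pairs within groups and a common biological coefficient of variation of 0.852. The sum of 10 NK cell genes was 17284 to 35398 normalized CPM, with Ncr1 between 1625 and 4040. The library RMA early 1 stood apart on the 60 genes, with 0 counts for 15 of them and a level under that of every control for 30. Control 4 and RMA-KR intermediate 3, 4 and 5 had summed levels of 21 immediate early genes of 2081 to 2532 normalized CPM, against 6103 to 14674 in the other libraries. The NK cell sum was 17284 to 18752 in the 3 RMA-KR intermediate libraries of these, against 30316 and 32104 in the other two. Gzma, a granzyme, was at 4445 to 5031 in those 3 libraries against 11570 and 12470. Counts without these 4 libraries are given after those with them. A span shared with another annotated gene was found for 31 of the 60 genes, and the strand setting of the counting is not given in the sources used here.

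The G2 and mitosis genes were low in control NK cells, spread from the control level to somewhat above it at day 2 after either tumor, and were high in RMA-bearing mice from day 4. In RMA-KR-bearing mice their sum at day 7 overlapped that of the controls, through control 1 alone, and they were high at day 14. The summed level of the 60 genes was 1756, 871, 1137 and 828 normalized CPM in the 4 controls. It was 874, 2357 and 2336 in RMA early, 6771, 8790 and 8270 in RMA intermediate, and 7752, 9598 and 5797 in RMA late. In RMA-KR-bearing mice the sum was 990, 2001 and 1896 at the early stage, 1157, 1441, 1641, 1175 and 1433 at the intermediate stage, and 5991, 8616 and 4288 at the late stage. All 9 libraries of RMA intermediate, RMA late and RMA-KR late lay above every other library of the series. RMA early, RMA-KR early and RMA-KR intermediate overlapped the controls. At day 2 this was through RMA early 1 and RMA-KR early 1 alone, and the other 4 day 2 libraries lay above every control. Control 1 was the highest control, and all 5 RMA-KR intermediate libraries lay above the other 3 controls. In a bulk sample, more dividing cells and more of these RNAs per cell cannot be told apart.

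**Figure D2:**
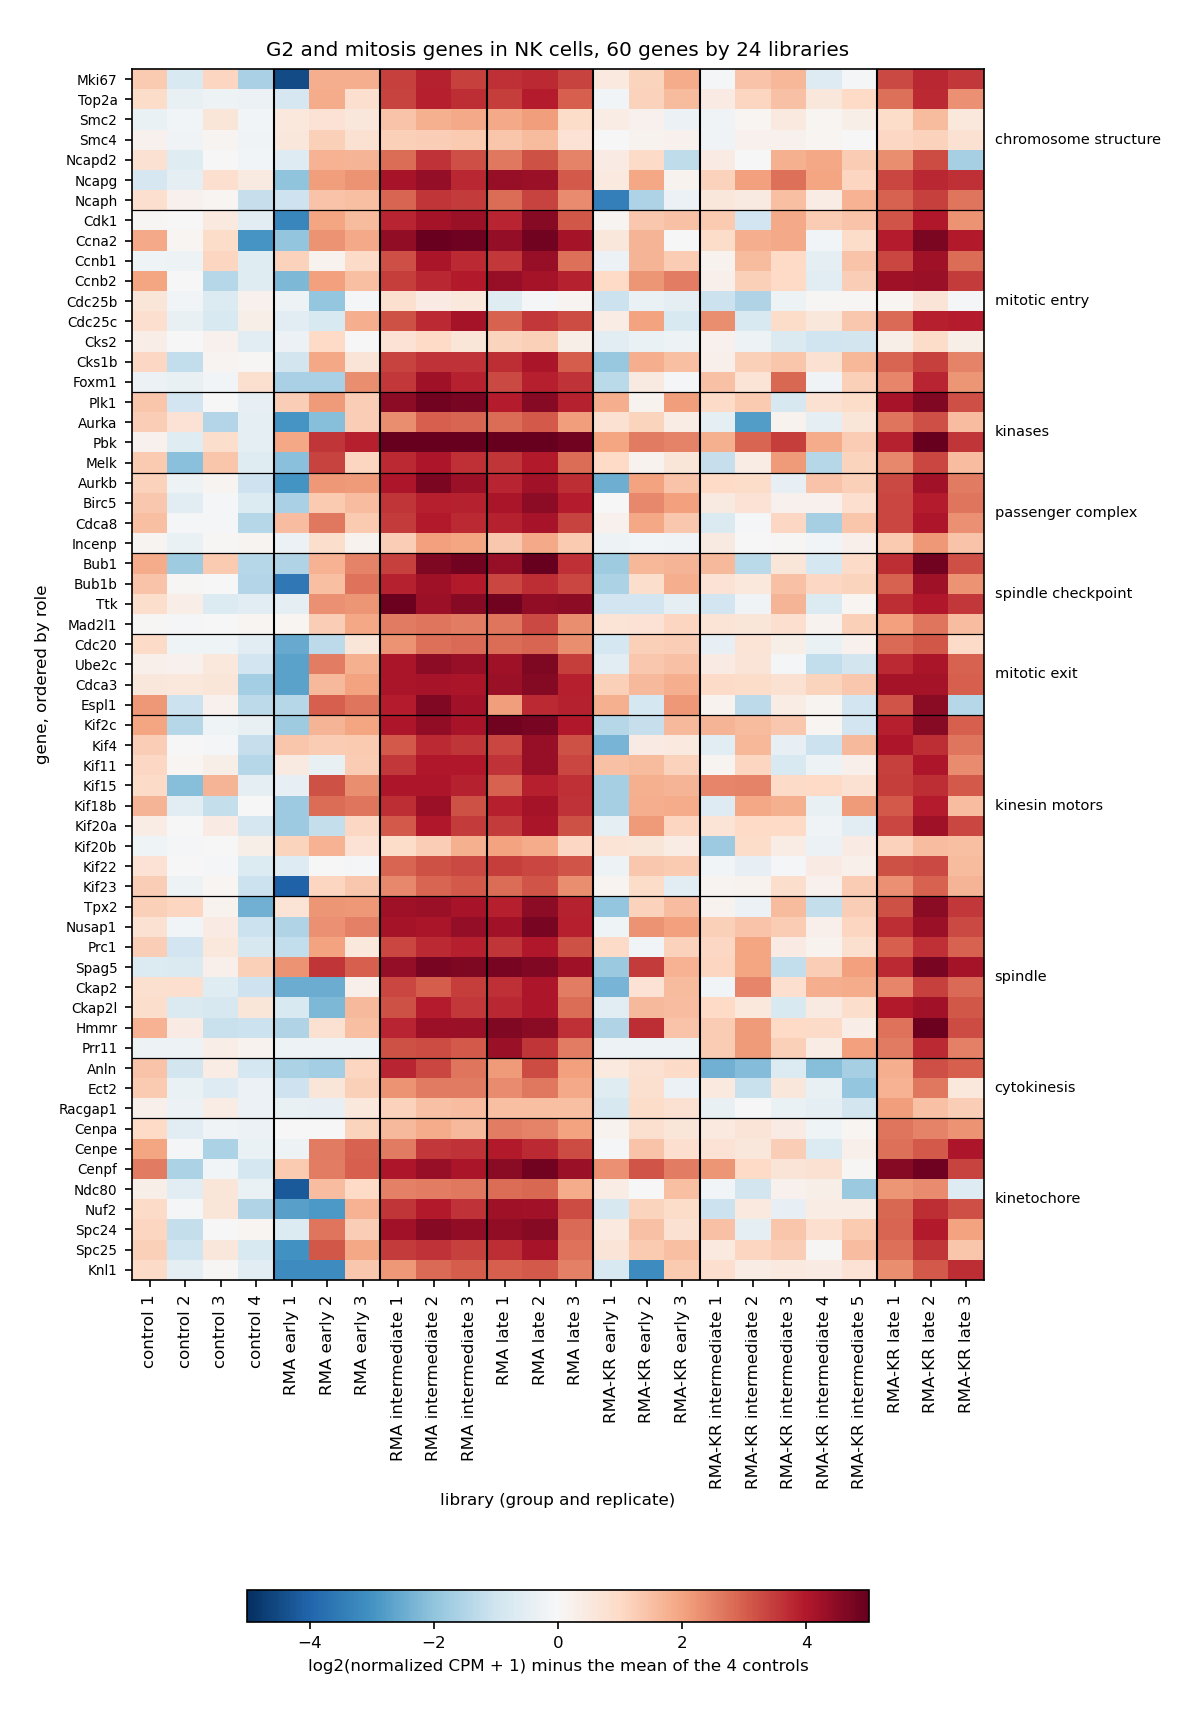
Level of each of the 60 genes (rows, by role) in each of the 24 libraries (columns, by group), as log2(normalized CPM + 1) minus the mean of the 4 controls. RMA intermediate, RMA late and RMA-KR late are red in nearly every row, and Cdc25b, Cks2 and Smc4 are the palest rows there.

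A gene was called when the adjusted p of edgeR's quasi-likelihood test, over all 17097 genes, was under 0.05 and the change more than 2-fold. In RMA intermediate, 42 of the 60 genes rose against control and 0 fell, where 1.26% of all genes tested were called higher and 0.386% lower. In RMA late, 42 rose and 0 fell, against 1.42% and 0.368% of all genes. The median log2 fold change of the 60 genes was 3.53 at the intermediate and 3.59 at the late stage, while that of all genes tested was -0.29 and -0.18. In RMA intermediate, 59 of the 60 genes lay above all 4 controls in every library, against 10.2% of all genes tested, and the exception was Cdc25b. In RMA late this held for 57 genes, against 9.24% of all genes, and the exceptions were Cdc25b, Cks2 and Espl1. The count in RMA late was 27 without RMA late 2, and no other single library moved the counts of these 2 comparisons by over 1.5 times.

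At day 2 of RMA, edgeR called 0 of the 60 genes (0% of all genes tested were called higher), 15 had an unadjusted p under 0.05, and DESeq2 called 2. The median log2 fold change was 0.89, and 6 genes lay above all controls in every library, against 2.12% of all genes tested. RMA early 2 and 3 had 36 and 40 genes above all controls, and RMA early 1 had 8. The median was 1.34 without control 1 and 1.38 without RMA early 1. Without RMA early 3, 1 gene was called higher and 2 lower. The highest member was Pbk, a mitotic kinase, with 4.80, 16.9 and 21.2 normalized CPM against 0.739, 0, 1.79 and 0.0893 in the controls, so the groups did not overlap. Its log2 fold change was 4.47 ± 0.86 (SE), with an adjusted p of 0.106.

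From day 2 to day 4 of RMA, 16 of the 60 genes rose and 0 fell, against 1.1% of all genes called higher and 0.626% lower, with a median log2 change of 2.53. No overlap between the 2 days, with day 4 higher, was found for 56 genes, against 13.1% of all genes. The count of 16 called genes moved with single libraries: it was 3 without RMA early 1, 10 without RMA early 2, and 9, 7 and 6 without RMA intermediate 1, 2 and 3. The genes that rose included Top2a, Ccnb1, Plk1, Cdc20, Birc5, Kif11, Kif22 and Racgap1. Prr11, a spindle gene, had 0 counts in all 3 RMA early libraries and 9.97, 10.4 and 9.17 normalized CPM in RMA intermediate, at least 26.7-fold higher when RMA early is set to the floor of 3 counts per library. From day 4 to day 9 of RMA, edgeR called 0 of the 60 genes (0% of all genes tested), and 0 had an unadjusted p under 0.05. DESeq2 with its default settings called 0 of the 60 genes and 35 of all genes. The median log2 change was 0.02, and its sign turned with single libraries, to -0.11 without RMA intermediate 1 and -0.23 without RMA late 2, while it was 0.24 without RMA late 3. Bub1b, Cdc25b and Espl1 were lower in each RMA late library than in any RMA intermediate library, with log2 changes of -0.56, -0.76 and -0.88, and Cenpa and Birc5 were higher in each, at 0.68 and 0.40, where 5.55% and 5.25% of all genes tested lay apart in these directions.

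In RMA-KR early, edgeR called 0 of the 60 genes (0% of all genes tested were called higher and 0.0819% lower), 14 had an unadjusted p under 0.05, and DESeq2 called 1. In RMA-KR intermediate, edgeR called 0 of 60 (0.0175% of all genes), 5 had an unadjusted p under 0.05, and DESeq2 called 2. The median log2 fold change of the 60 genes was 0.69 at day 2 and 0.44 at day 7, and 5 genes lay above all controls in every library at each of these stages, against 4.5% and 1.33% of all genes tested. These medians moved with single libraries. At day 2 the median was 1.13 without control 1, 1.09 without RMA-KR early 1 and 0.45 without RMA-KR early 3, and at day 7 it was 1.04 without control 1 and 0.22 without control 4. Without the 4 libraries low in immediate early genes, edgeR again called 0 genes at day 7, with a median of 0.29. In RMA-KR late, 32 of the 60 genes rose and 0 fell, against 0.719% of all genes called higher and 0.263% lower, with a median log2 fold change of 3.14. There, 52 genes lay above all controls in every library, against 5.88% of all genes tested. The 8 genes whose groups overlapped included Cdc25b, Cks2, Espl1, Ect2, Ndc80 and Smc2, and RMA-KR late 3 had 3 genes below every control. The count of 32 rested on single libraries: it was 13, 19 and 17 without control 2, 3 and 4, and 20 and 19 without RMA-KR late 1 and 2. It was 17 without the 4 libraries low in immediate early genes.

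Between day 2 and day 7 of RMA-KR, 1 of the 60 genes rose, Prr11, and 0 fell, against 0.357% of all genes called higher and 0.105% lower. Prr11 had 0 counts in the 3 RMA-KR early libraries and 0.569 to 4.23 normalized CPM (median 1.87) in RMA-KR intermediate, at least 9.94-fold higher. No gene was called higher without RMA-KR early 1, RMA-KR early 2, RMA-KR intermediate 3 or RMA-KR intermediate 5, or without the libraries low in immediate early genes, and without RMA-KR early 1 there was 1 gene called lower. Kif11, Anln and Cenpf were lower in every library of day 7 than in any of day 2 (4.27% of all genes tested), and Incenp, Ncaph and Prr11 were higher in every one (4.55% of all genes tested). Of these 6 only Prr11 was called. From day 7 to day 14, 18 of the 60 genes rose and 0 fell, against 0.246% of all genes called higher and 0.0526% lower, with a median log2 change of 2.55. No overlap, with day 14 higher, was found for 50 genes, against 2.87% of all genes. The count of 18 was 11, 10, 7 and 11 without RMA-KR intermediate 1, 3, 4 and 5, and 9 and 10 without RMA-KR late 1 and 2. It was 4 without the libraries low in immediate early genes, where the median log2 change of the 60 genes was 2.62.

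The calls of single genes were also followed over the left-out libraries. Of 42 representative genes of the 10 roles, 30 were called in RMA late and 25 in RMA-KR late. With each library left out in turn, 21 of the 30 were called in all 7 fits in RMA late, and 12 of the 25 in RMA-KR late. Those 12 were Birc5, Ccnb1, Cenpa, Incenp, Kif11, Kif20a, Kif22, Mad2l1, Nusap1, Pbk, Plk1 and Top2a. Of the representative genes that edgeR did not call, DESeq2 called 6 of 12 in RMA late (Bub1, Bub1b, Ect2, Foxm1, Hmmr and Ndc80) and 8 of 17 in RMA-KR late (Aurkb, Bub1b, Foxm1, Hmmr, Kif2c, Mki67, Smc2 and Ttk). With edgeR on the 2 groups alone, Aurka, Bub1, Bub1b, Ect2, Foxm1, Hmmr, Knl1 and Ndc80 were called in addition in RMA late and Cenpf was not, and in RMA-KR late Aurkb, Knl1 and Ttk were called in addition and Ccna2, Ccnb2, Cdc20, Cdca8, Cenpe, Cenpf, Pbk and Tpx2 were not.

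The counts by role also moved without the libraries low in immediate early genes, which for these comparisons takes control 4 out of the control group. Of the 60 genes, 29 were then called in RMA intermediate, 31 in RMA late and 17 in RMA-KR late. In RMA-KR late the count fell from 3 to 0 in mitotic exit (Cdc20, Ube2c and Cdca3), from 4 to 1 in the kinetochore (Cenpa was left), from 5 to 2 in mitotic entry (Ccna2 and Ccnb1 were left) and from 6 to 3 in the spindle genes (Nusap1, Spag5 and Tpx2 were left). It changed by at most 1 gene in each of the other 6 roles. In RMA intermediate and in RMA late the kinetochore count fell from 6 to 2, without Cenpe, Cenpf, Nuf2 and Spc25. The chromosome structure count fell from 7 to 5 in RMA intermediate, without Mki67 and Ncapd2, and from 7 to 4 in RMA late. The kinesin count fell from 5 to 3 in RMA intermediate and from 6 to 4 in RMA late. The mitotic exit count fell from 3 to 2 in both, without Cdc20. In the spindle checkpoint it fell from 3 to 2 in RMA intermediate, without Bub1b.

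**Figure D3:**
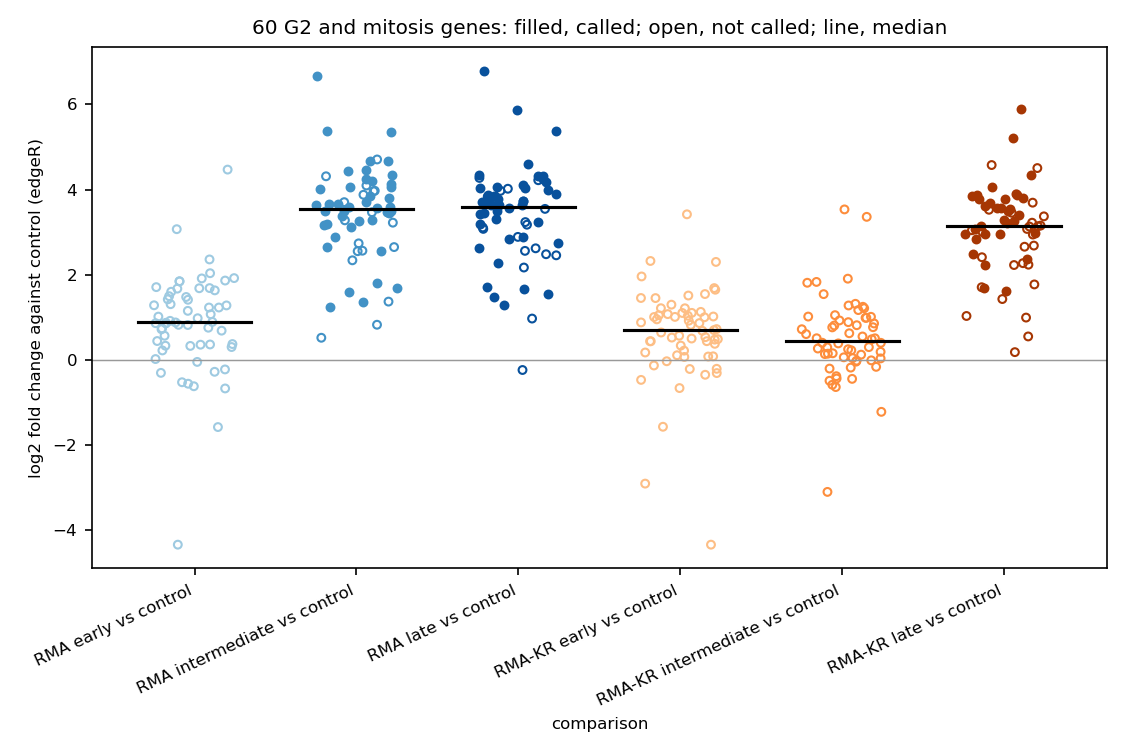
Log2 fold change of each of the 60 genes against control in each tumor and stage (edgeR), with filled points for called genes, open points for genes not called and a line at the median. The medians lie at 3.53, 3.59 and 3.14 in RMA intermediate, RMA late and RMA-KR late and between 0.44 and 0.89 in the other 3 groups, where the lowest point is Prr11 at both early stages (0 counts in every library) and Anln in RMA-KR intermediate.

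The 2 tumor groups differed at the intermediate stage, where tumor and day cannot be told apart. All 60 genes were higher in every RMA intermediate library (day 4) than in any RMA-KR intermediate library (day 7), against 5.82% of all genes tested, and 30 were called higher and 0 lower, against 0.48% and 0.0234% of all genes. The median log2 difference of the 60 genes was 2.94. The largest was that of Anln, the cytokinesis scaffold anillin, at 73.0, 52.8 and 33.1 normalized CPM in RMA intermediate and 0, 0.180, 2.29, 0.228 and 0.687 in RMA-KR intermediate. Its log2 difference was 6.32 ± 1.01 (SE, adjusted p = 0.00208). The count of 30 fell whichever library of the 2 groups was left out, to 20 and 21 without RMA-KR intermediate 2 and 3, to 19, 18 and 17 without RMA intermediate 1, 2 and 3 and to 18, 14 and 18 without RMA-KR intermediate 1, 4 and 5, and it was 10 without the libraries low in immediate early genes. The median log2 difference without those libraries was 2.89.

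At the early stage, both tumors at day 2, edgeR called 0 of the 60 genes between RMA and RMA-KR, where 0.175% of all genes were called higher and 0.129% lower in RMA, 6 had an unadjusted p under 0.05, and DESeq2 called 2 with its default settings. Without RMA early 3, 0 genes were called higher and 5 lower in RMA. Kif4, Kif20b, Smc2 and Smc4 were higher in every RMA early library than in any RMA-KR early library, against 5.56% of all genes tested, with log2 differences of 1.54, 0.71, 0.48 and 0.75. Ttk, a spindle checkpoint kinase, stood at 0.400, 8.56 and 8.06 normalized CPM in RMA early and 0, 0 and 0.402 in RMA-KR early, and the groups overlapped. At the late stage (day 9 and day 14), edgeR called 0 of the 60 genes (0% of all genes tested), and 1 had an unadjusted p under 0.05. DESeq2 with its default settings called 0 of the 60 genes and 56 of all genes. No overlap, with RMA late higher, was found for 1 gene (5.18% of all genes tested). The median log2 difference was 0.40 in the 60 genes and 0.056 in all genes tested, and 50 of the 60 genes were on the higher side in RMA late. The median of the 60 genes moved with single libraries, to 0.19 without RMA late 2 and to 0.76 and 0.13 without RMA-KR late 2 and 3. For Top2a it was 0.46 ± 0.50 (SE) and for Cdk1 0.65 ± 0.81, so a difference between the tumors at the late stage was not detectable with this spread and is not excluded. The change from the early to the late stage was compared between the tumors in the same fit. There edgeR called 0 of the 60 genes (0% of all genes), and 3 had an unadjusted p under 0.05. For this change DESeq2 with its default settings called 0 of the 60 genes and 154 of all genes. Without RMA early 3, 1 gene had a called, larger change in RMA.

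Genes of chromosome structure open the account by role. In the cell nucleus Mki67 coats mitotic chromosomes, Top2a untangles them, and Smc2, Smc4, Ncapd2, Ncapg and Ncaph form condensin. All 7 rose in both RMA intermediate and RMA late, and 3 of 7 rose in RMA-KR late. Without the libraries low in immediate early genes these counts were 5, 4 and 2. Top2a was at 103, 41.8, 45.6 and 44.0 normalized CPM in the controls, at 572, 817 and 718 in RMA intermediate, at 611, 834 and 434 in RMA late and at 370, 735 and 265 in RMA-KR late. None of these 9 tumor libraries reached down to the controls, and control 1 was the highest control. Its log2 fold change was 3.59 ± 0.50, 3.43 ± 0.50 and 2.97 ± 0.49 (SE), with adjusted p of 0.000229, 0.000442 and 0.00225. Mki67 was at 60.8, 13.7, 51.4 and 7.05 in the controls, at 267, 358 and 266 in RMA intermediate, at 314, 328 and 261 in RMA late and at 243, 334 and 290 in RMA-KR late. Here too the groups did not overlap, yet the controls lay far apart, the adjusted p was 0.0467, 0.0413 and 0.0734, and its calls stood at the threshold. The call in RMA late was lost in all 7 fits that left out 1 library (adjusted p up to 0.184), while DESeq2 called Mki67 in RMA-KR late (adjusted p = 0.031). Smc4 changed least of this role, from 126 ± 17.2 normalized CPM (SD, n = 4) in the controls to 299 ± 15.3 (n = 3), 307 ± 88.1 (n = 3) and 251 ± 35.6 (n = 3), and in RMA-KR late its 1.99-fold change (adjusted p = 0.00754) fell just under the 2-fold threshold.

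Genes of mitotic entry turn on the kinase that starts mitosis: Cdk1 with its cyclins Ccna2, Ccnb1 and Ccnb2, the small subunits Cks1b and Cks2, the activating phosphatases Cdc25b and Cdc25c, and the transcription factor Foxm1. Of these 9, 5 rose in RMA intermediate, in RMA late and in RMA-KR late. In RMA-KR late, with 1 library left out, the calls of Cdk1 and Ccna2 held in 1 of 7 fits each, that of Cks1b in 2, that of Ccnb2 in 3 and that of Ccnb1 in 7, and without control 2 only Ccnb1 of the 5 was called. Without the libraries low in immediate early genes 2 of the 5 were called there, and Cdk1, Ccnb2 and Cks1b were not (adjusted p = 0.135, 0.0772 and 0.133). Cdk1 was at 9.06, 8.78, 12.5 and 5.54 normalized CPM in the controls, at 134, 172 and 191 in RMA intermediate, at 136, 227 and 81.0 in RMA late and at 85.4, 153 and 44.8 in RMA-KR late. The lowest of these tumor libraries, RMA-KR late 3, was still above the highest control. Its log2 fold changes were 4.20 ± 0.83, 4.04 ± 0.82 and 3.39 ± 0.81 (SE), with adjusted p of 0.00622, 0.00682 and 0.0364. In RMA-KR late the adjusted p was up to 0.141 with 1 library left out. Ccnb1 was at 1.66, 1.64, 5.48 and 1.07 in the controls. It ranged from 28.1 to 52.2 in RMA intermediate, from 20.3 to 62.8 in RMA late and from 20.7 to 57.3 in RMA-KR late. Per kilobase of merged exons, Ccnb2 had the highest mean of the 60 genes in each of these 3 groups, with 119, 156 and 147 normalized CPM per kilobase.

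Cdc25b departed from the other genes of mitotic entry. It was at 190, 114, 78.6 and 144 normalized CPM in the controls, at 219, 165 and 183 in RMA intermediate, at 81.1, 116 and 139 in RMA late and at 134, 197 and 117 in RMA-KR late. All 3 tumor groups overlapped the controls. The log2 fold changes were 0.52 ± 0.39, -0.24 ± 0.39 and 0.18 ± 0.39 (SE), with adjusted p of 0.516, 0.877 and 0.891. In the controls it had the highest mean per kilobase of the 60 genes, at 35.3 normalized CPM per kilobase. Cks2 was also not called, at 0.83, 0.97 and 0.55. Foxm1 and Cdc25c had large fold changes over low controls, 4.31 and 4.71 in RMA intermediate, and did not pass the test, with adjusted p of 0.0570 and 0.119.

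**Figure D4:**
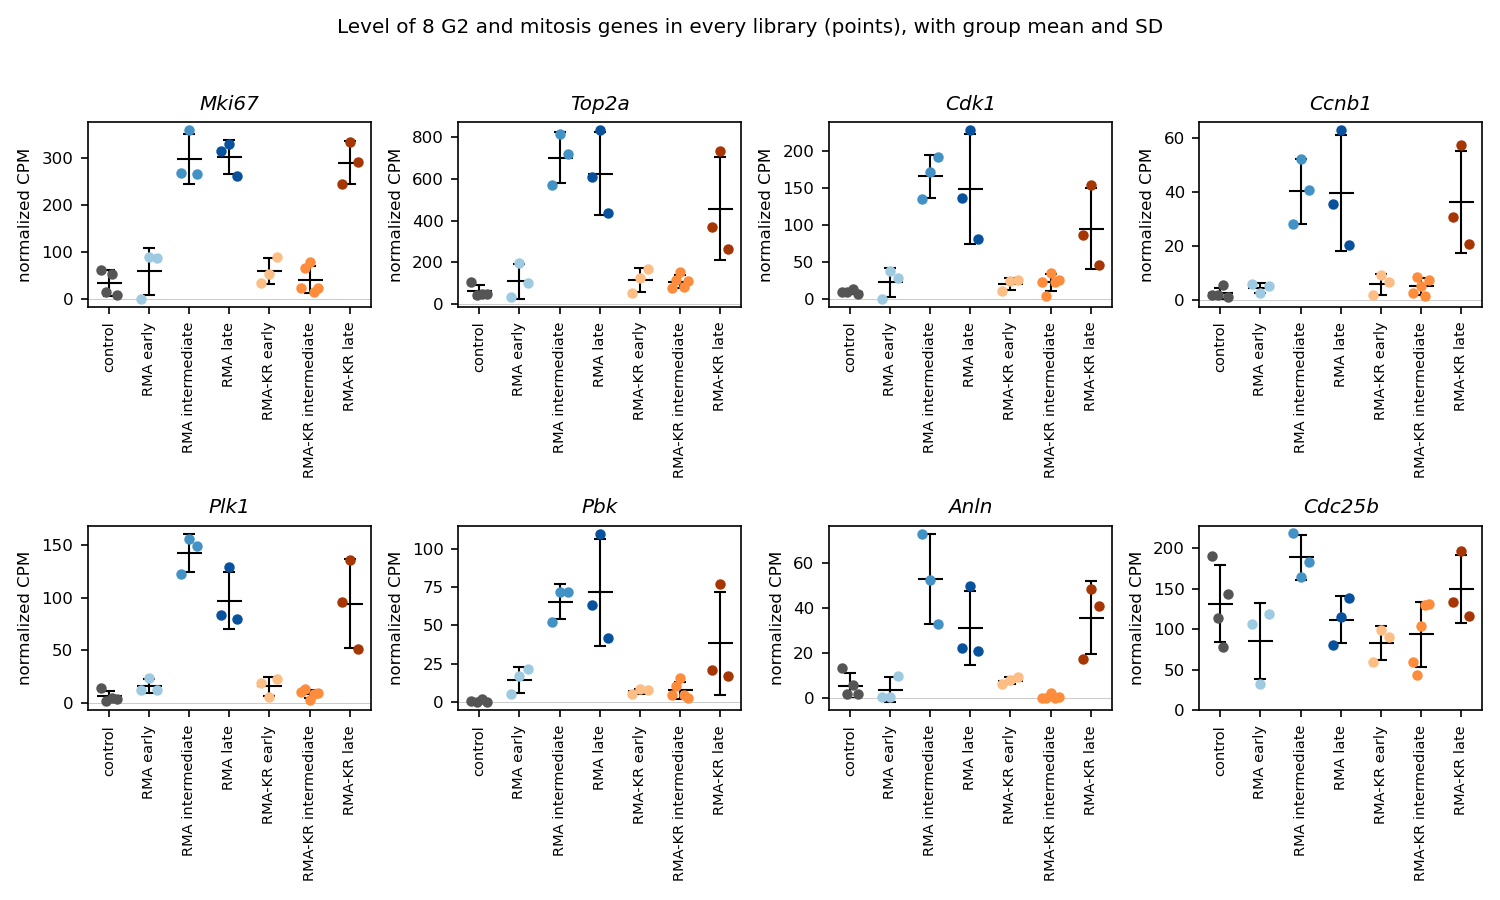
Normalized CPM of 8 of the genes in every library (points) by group, with the group mean (bar) and SD. Mki67, Top2a, Cdk1, Ccnb1, Plk1 and Pbk are high in RMA intermediate, RMA late and RMA-KR late, Anln is in addition near 0 in RMA-KR intermediate, and the groups of Cdc25b overlap.

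Of the mitotic kinases outside the passenger complex, Plk1 and Pbk rose in RMA intermediate, RMA late and RMA-KR late, and Aurka and Melk were not called by edgeR in any of them, while edgeR on the 2 groups alone called Aurka in RMA late (adjusted p = 0.036). Plk1, which drives spindle assembly and mitotic exit, was at 13.7, 1.83, 4.42 and 3.21 normalized CPM in the controls, at 122, 156 and 150 in RMA intermediate, at 83.2, 129 and 79.4 in RMA late and at 95.5, 136 and 51.3 in RMA-KR late. These groups did not overlap the controls, and the log2 fold changes were 4.67 ± 0.61, 4.11 ± 0.60 and 4.07 ± 0.60 (SE, adjusted p = 0.000179, 0.000468 and 0.00113). Pbk had the highest log2 fold change of the 60 genes in all 3 groups, 6.66, 6.79 and 5.89. It was at 52.4, 72.0 and 72.0 normalized CPM in RMA intermediate, at 63.3, 110 and 41.5 in RMA late and at 20.9, 77.0 and 16.9 in RMA-KR late, and it was also above every control in each early and RMA-KR intermediate library. Aurka, the centrosome kinase, had a log2 fold change of 2.55, 2.48 and 2.41, with adjusted p of 0.206, 0.211 and 0.287 and controls from 2.21 to 19.4.

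The chromosomal passenger complex corrects wrong spindle attachments and directs cytokinesis, with Aurkb as its kinase and Birc5 (survivin), Cdca8 (borealin) and Incenp as its other subunits. All 4 rose in RMA intermediate and RMA late, and 3 rose in RMA-KR late, where Aurkb had an adjusted p of 0.0676. With 1 library left out, the call of Aurkb in RMA late held in 2 of 7 fits and that of Cdca8 in RMA-KR late in 3 of 7, and without the libraries low in immediate early genes the adjusted p of Aurkb in RMA late was 0.109. Birc5 was at 24.6, 5.69, 8.43 and 5.18 normalized CPM in the controls, at 119, 148 and 142 in RMA intermediate, at 169, 221 and 149 in RMA late and at 99.7, 152 and 62.7 in RMA-KR late. No tumor library of these groups came near the controls, and without the libraries low in immediate early genes the adjusted p of Birc5 in RMA-KR late was 0.0527. Incenp changed least of the complex, with log2 fold changes of 1.81, 1.55 and 1.69 from a control level of 41.8 ± 6.29 normalized CPM (SD, n = 4).

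The spindle checkpoint holds mitosis until every chromosome is attached, through Bub1, Bub1b, Ttk and Mad2l1. Of these, 3 rose in RMA intermediate, 2 in RMA late and 1 in RMA-KR late. Without the libraries low in immediate early genes Bub1b was not called in RMA intermediate. Mad2l1 was the one called throughout, from 21.8, 19.5, 20.7 and 22.3 normalized CPM in the controls to 132, 139 and 129 in RMA intermediate, 142, 215 and 108 in RMA late and 91.2, 141 and 63.0 in RMA-KR late. Its controls lay close together, and its log2 fold changes were 2.66 ± 0.34, 2.88 ± 0.34 and 2.22 ± 0.34 (SE, adjusted p = 0.000169, 0.000134 and 0.00134). Bub1 had larger fold changes, 3.88, 3.97 and 3.53, but controls that spread widely, and its adjusted p was 0.0804, 0.0676 and 0.158. Ttk had log2 fold changes of 5.37, 5.38 and 4.50, called in RMA and at an adjusted p of 0.0524 in RMA-KR late, and its call in RMA late held in 5 of 7 fits that left out 1 library.

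Mitotic exit is driven by the anaphase-promoting complex (APC/C) with its activator Cdc20 and its ubiquitin-conjugating enzyme Ube2c and by the protease separase (Espl1), and Cdca3, a substrate of the APC/C, was grouped with them. Cdc20, Ube2c and Cdca3 rose in RMA intermediate, RMA late and RMA-KR late. Cdc20 was at 46.0, 20.0, 19.8 and 15.7 normalized CPM in the controls, at 112, 161 and 172 in RMA intermediate, at 166, 182 and 121 in RMA late and at 173, 208 and 46.6 in RMA-KR late. RMA-KR late 3 was just above control 1, and the other tumor libraries of these groups were well above it. Ube2c had log2 fold changes of 4.44 ± 0.87, 4.32 ± 0.86 and 3.77 ± 0.85 (SE, adjusted p = 0.00576, 0.00605 and 0.0248). In RMA-KR late, with 1 library left out, the call of Cdc20 held in 2 of 7 fits and that of Ube2c in 1 of 7 (adjusted p up to 0.15 and 0.105), and without the libraries low in immediate early genes the adjusted p was 0.152 and 0.089. In RMA late the call of Cdc20 held in 3 of 7 such fits, and that of Ube2c in 7 of 7. Without the libraries low in immediate early genes, Cdc20 was also not called in RMA intermediate or in RMA late (adjusted p = 0.0937 in RMA late). Espl1 had 10.5, 35.3 and 37.3 in RMA late and 22.8, 60.1 and 0 in RMA-KR late against controls from 0.0893 to 11.1, and it was not called in any of the 3 groups.

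Kinetochore genes link chromosomes to the spindle: Cenpa is the histone of the centromere, Cenpe a motor and Cenpf a scaffold there, and Ndc80, Nuf2, Spc24, Spc25 and Knl1 bind microtubules or anchor those that do. Of these 8, 6 rose in RMA intermediate, 6 in RMA late and 4 in RMA-KR late. Cenpa was at 68.9, 23.2, 29.7 and 27.7 normalized CPM in the controls, at 106, 126 and 105 in RMA intermediate, at 203, 194 and 142 in RMA late and at 223, 194 and 164 in RMA-KR late. It was lower at day 4 of RMA than in any late library, and its log2 fold changes were 1.59 ± 0.33, 2.27 ± 0.33 and 2.38 ± 0.33 (SE, adjusted p = 0.00775, 0.000442 and 0.000580). Ndc80 and Knl1 did not pass edgeR's test in any of the 3 groups, while DESeq2 called Ndc80 in RMA late (adjusted p = 0.0397), and edgeR on the 2 groups alone called both genes in RMA late (0.0035 and 0.00397) and Knl1 in RMA-KR late (0.0263). With 1 library left out, the calls of Cenpe and Cenpf held in 2 and 4 of 7 fits in RMA late and in 1 and 2 of 7 in RMA-KR late. RMA-KR late 3 had 10.8 normalized CPM of Ndc80, under the lowest control at 11.6.

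Among 9 kinesin motors, which move and shape the spindle, 5 rose in RMA intermediate, 6 in RMA late and 4 in RMA-KR late. Kif22, which pushes chromosome arms from the poles, was at 33.6, 19.9, 18.5 and 12.1 normalized CPM in the controls, at 154, 187 and 205 in RMA intermediate, at 227, 209 and 184 in RMA late and at 185, 204 and 61.0 in RMA-KR late. The groups did not overlap, and the log2 fold changes were 3.12 ± 0.40, 3.31 ± 0.40 and 2.84 ± 0.39 (SE, adjusted p = 0.000169, 0.000134 and 0.00058). Kif11, which pushes the spindle poles apart, and Kif20a, needed for cytokinesis, were called in all 3 groups, with log2 fold changes of 3.27 to 3.79. The call of Kif2c in RMA late held in 2 of 7 fits that left out 1 library. Kif20b was called in RMA late alone (log2 fold change 1.72, adjusted p = 0.0229), and its difference between the tumors at the late stage was not called. Without the libraries low in immediate early genes, neither Kif20b nor Kif2c was called in RMA late.

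Of 8 spindle genes, 6 rose in each of RMA intermediate, RMA late and RMA-KR late. Tpx2 activates Aurora A on the spindle, Nusap1 bundles microtubules at chromosomes and Prc1 crosslinks them at the midzone. Nusap1 was at 12.8, 6.37, 9.80 and 2.86 normalized CPM in the controls, at 143, 136 and 168 in RMA intermediate, at 145, 216 and 118 in RMA late and at 104, 161 and 79.4 in RMA-KR late. The lowest tumor library of these groups, RMA-KR late 3, was well above the highest control, and the log2 fold changes were 4.25 ± 0.68, 4.35 ± 0.68 and 3.87 ± 0.67 (SE, adjusted p = 0.00128, 0.000921 and 0.00343). Hmmr did not pass edgeR's test, with adjusted p of 0.0860, 0.0668 and 0.144 at log2 fold changes of 4.09, 4.27 and 3.89, and DESeq2 called it in RMA late (0.00687) and RMA-KR late (0.0289). With 1 library left out, the call of Tpx2 held in 6 of 7 fits in RMA late and in 2 of 7 in RMA-KR late.

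Of the 3 cytokinesis genes, Racgap1, part of centralspindlin, rose in RMA intermediate, RMA late and RMA-KR late, and edgeR did not call Anln or Ect2 there. Ect2 was called in RMA late by DESeq2 (adjusted p = 0.0155), by edgeR on the 2 groups alone (0.0258) and with at least 10 counts in every library (0.0330). Without the libraries low in immediate early genes Racgap1 was not called in RMA intermediate. Racgap1 was at 176, 119, 191 and 119 normalized CPM in the controls, at 329, 412 and 432 in RMA intermediate, at 425, 419 and 423 in RMA late and at 637, 408 and 346 in RMA-KR late. It was the third highest per kilobase of the 60 genes in the controls (21.4 normalized CPM per kilobase), did not overlap between these groups and the controls, and had log2 fold changes of 1.37 ± 0.31, 1.48 ± 0.31 and 1.62 ± 0.31 (SE, adjusted p = 0.0163, 0.00824 and 0.00957). The call in RMA-KR late held in 5 of 7 fits that left out 1 library. Anln had 13.5, 1.83, 5.79 and 1.88 normalized CPM in the controls, so its low level in RMA-KR intermediate, 0 to 2.29, did not pass the test (-3.10 ± 0.90 on the log2 scale, adjusted p = 0.514).

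Other cell cycle genes were counted in 4 further lists. Of 59 further G2 and mitosis genes outside the 60, 17 rose in RMA intermediate, 21 in RMA late and 12 in RMA-KR late, with 0 lower, and these were 11, 12 and 5 without the libraries low in immediate early genes. The highest log2 fold change of this list was that of the kinesin Kif14, 4.30, 4.59 and 4.06, which did not pass the test (adjusted p = 0.213, 0.168 and 0.295). Of 38 S phase genes, 21, 15 and 7 rose (17, 13 and 3 without those libraries), and the highest in RMA late was Tk1, the thymidine kinase, at 3.76. Of 16 APC/C subunits and regulators and of 10 cohesin genes, which many cells express through the cycle, edgeR called 0 in each of these 3 comparisons. The unadjusted p was under 0.05 for 3, 4 and 2 of the APC/C genes and for 2, 2 and 2 of the cohesin genes, and the calls of DESeq2 on these 2 lists were not computed. The APC/C genes summed to 1178 to 1317 normalized CPM in the controls, 1462 to 1782 in RMA intermediate, 1583 to 1739 in RMA late and 1334 to 1589 in RMA-KR late, so each of these 9 libraries lay above every control. The cohesin genes summed to 1423 to 1545 in the controls and to 1340 to 1523 in the 9 libraries. The median log2 fold change in RMA late was 3.59 in the 60 genes, 3.00 in the further G2 and mitosis genes, 1.78 in the S phase genes, 0.31 in the APC/C genes and 0.01 in the cohesin genes.

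The S phase genes were also set beside the 60 genes in RMA-KR intermediate, with no test of the difference between the lists. The summed level of the S phase genes was 2334 to 2616 normalized CPM in the 4 controls and 2939, 3236, 6535, 3758 and 5418 in the 5 RMA-KR intermediate libraries, each above every control. The 60 genes summed to 1157 to 1641 there, under control 1 (1756) and above the other 3 controls (828 to 1137). Of the 38 S phase genes edgeR called 0 in this comparison, 17 had an unadjusted p under 0.05 and DESeq2 called 1, with a median log2 fold change of 0.87 against 0.44 in the 60 genes. The highest S phase sums were those of RMA-KR intermediate 3, 4 and 5, the libraries low in immediate early genes, and their part in the S phase level was not tested. Without these 3 and control 4, edgeR called 0 S phase genes and the median log2 fold change was 0.25 in the S phase genes and 0.29 in the 60 genes. In RMA-KR late the S phase genes summed to 4306, 7485 and 4210.

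**Figure D5:**
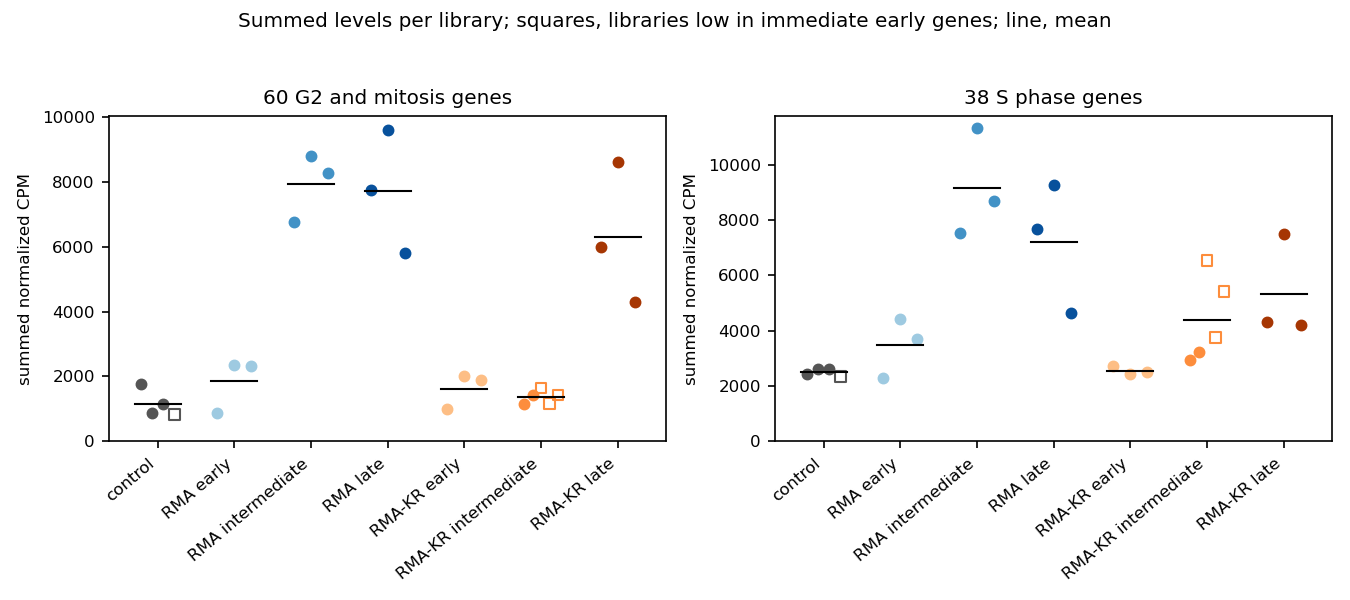
Summed normalized CPM of the 60 G2 and mitosis genes (left) and of 38 S phase genes (right) in every library by group, with squares for the 4 libraries low in immediate early genes and a line at the group mean. In RMA-KR intermediate the 60 genes lie at 1157 to 1641, within the range of the 4 controls, whose highest is control 1, and the S phase genes at 2939 to 6535, above theirs.

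RMA cells are dividing T lineage cells, so markers of T cells and other cells are given beside these results. The summed level of 11 T cell markers was 342 to 414 normalized CPM in the controls, 282 to 329 in RMA intermediate, 467 to 596 in RMA late and 416 to 506 in RMA-KR late, so it lay under every control in RMA intermediate and above every control in both late groups. Most of it came from Trbc1 and Trbc2, constant segments of the T cell receptor beta chain. Of the 11 markers, 8 passed the filter on low counts and 0 were called by edgeR in these 3 groups against control, with 1, 2 and 1 at an unadjusted p under 0.05. Cd3e, a chain of the CD3 complex, was at 0, 0, 0 and 5.00 normalized CPM in controls 1 to 4. In the 9 libraries of RMA intermediate, RMA late and RMA-KR late it was at 0 to 1.03, and Cd4 and Cd8a at 0 to 0.105. Other markers of the list were not at 0. Cd3g was at 18.2, 14.7 and 14.3 in RMA late against 4.25, 3.67, 3.58 and 14.4 in controls 1 to 4. Cd3d was at 17.2, 8.47 and 5.04 in RMA late against 6.47, 2.70, 1.26 and 14.7 in these controls. The highest control level of Cd3d, Cd3e and Cd3g was thus that of control 4, a library low in immediate early genes. In RMA-KR intermediate 3, 4 and 5, also low in them, Cd3d was at 20.99, 30.59 and 29.65, against 4.44 and 2.97 in libraries 1 and 2. Trac stood at 19.9, 15.3 and 14.9 in RMA-KR late against 4.99 to 13.3 in the controls, and Cd8b1 at 3.57 in RMA-KR late 3. The sum of 7 macrophage and monocyte markers was 8.74 to 18.3 in the controls, 16.5 to 20.5 in RMA intermediate, 33.5 to 51.1 in RMA late and 39.6 to 78.6 in RMA-KR late. It lay above every control in both late groups. The sum of 9 B cell markers was 239 to 420 in the controls, 312 to 343 in RMA intermediate, 336 to 392 in RMA late and 430 to 602 in RMA-KR late, above every control in the last. Most of it came from Ighm, at 483, 427 and 364 in RMA-KR late against 233 to 387 in the controls. The sum of 4 plasma cell markers was 171 to 250 in the controls, 282 to 317 in RMA intermediate, 182 to 332 in RMA late and 143 to 306 in RMA-KR late, and it came almost wholly from Xbp1, which is not particular to plasma cells. The sum of 7 granulocyte markers was at most 0.714 in the controls and 17.2 in RMA late 2, the library with the highest sum of the 60 genes, and at most 0.193 in the other 8 libraries of these groups. The sum of 9 red cell markers was 16.6 to 33.2 in the controls and 24.5 to 48.4 in these 9 libraries, and most of it came from Tfrc, the transferrin receptor, which dividing cells of many types express. The part of these cells in the level of the 60 genes was not tested. Immediate early genes summed to 6703 to 7074 in RMA intermediate, 6103 to 8151 in RMA late and 9076 to 11457 in RMA-KR late. In the first 3 controls they summed to 10311 to 12626, and in control 4 to 2532.

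Fold changes were also set beside the promoter classes, with no test between classes. Among the 50 genes with a promoter entry, the median log2 fold change in RMA late was 3.50 in the 39 genes with TTTGAA, 3.99 in the 3 genes with TTTAAA alone (Ccnb1, Birc5 and Cenpe) and 3.03 in the 8 genes with neither. Calls were made for 27 of 39, 3 of 3 and 4 of 8 of these genes. The class with neither held Cdc25b and Cks2, which were not called, and Mad2l1 and Nusap1, which were.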

How the data were processed

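Bulk polyA RNA-seq of 24 libraries was analysed. Per the study's methods and the submitters' processing notes, libraries were made with a Lexogen kit, reads were trimmed with cutadapt 1.10, ribosomal reads removed, the rest aligned to mm10 with STAR 2.5.3a and counted per Ensembl gene with HTSeq 0.6.1p1. The table deposited by the authors holds raw counts, which were used. Its 48 columns of normalized values and 29 columns of the authors' own comparisons (fold changes and p-values) were not used.

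Groups came from the labels. Genes were filtered with filterByExpr and tested with edgeR 4.0.16 (R 4.3.3, quasi-likelihood, robust, TMM scaling, 1 mean per group over all 24 libraries), with Benjamini-Hochberg adjustment over 17097 genes, and called at an adjusted p under 0.05 and a change over 2-fold. The SE of a log2 fold change was its size divided by the square root of F. Normalized CPM are CPM of the TMM-scaled library size. Levels per kilobase used the merged exon length of GENCODE vM21. The test was checked on simulated data, with changes set only in genes above a low mean level. Its recovery is not given here, and genes below that level were not covered. Alternatives were DESeq2 1.42.0, its size factors, filters, a replicate block, the compared groups alone and leaving out each library. Leaving out the libraries low in immediate early genes was chosen after seeing the data.

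The named genes were fixed representatives of each role, the 3 members highest and the 3 lowest by log2 fold change in any comparison, every gene called or overlapping where there were at most 5, and the highest or lowest of the other lists. The members, lists and tests were chosen with earlier results of these data known. Total counts of 5138651 to 14863500 per library set the counting precision.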

Additional observations from a re-analysis of the deposited data

Results flagged for a closer look

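In 13 of 122 tests of a group of 4 or 5 libraries (the controls and RMA-KR intermediate), over the 60 genes and their sum, 1 library stood apart from the others by Dixon's criterion. Chance gives this in about 1 in 20 groups. Control 1 stood apart, on the high side, for Top2a (102.6 normalized CPM), Cdc20 (46.02), Birc5 (24.58), Kif2c (12.75), Ect2 (36.59), Cenpa (68.94) and Cenpf (20.7). Control 3 stood apart for Ccnb1 (5.477) and Smc2 (77.63), and control 4 for Foxm1 (4.286) and, on the low side, Cdca3 (0.9821). Among the RMA-KR intermediate libraries, library 3 stood apart for Ttk (5.391) and library 1 for Cenpf (15.89). The difference between the tumors at the intermediate stage was tested directly, and 30 of the 60 genes were called higher in RMA intermediate than in RMA-KR intermediate, at day 4 and day 7, so tumor and day cannot be told apart.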

How the results depend on the processing

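The counts of genes called moved with the settings. DESeq2 with its default settings called 2 genes in RMA early, 1 in RMA-KR early and 2 in RMA-KR intermediate against control, 2 in RMA early against RMA-KR early, 33 in RMA intermediate against RMA early, 3 in RMA-KR intermediate against RMA-KR early and 32 in RMA-KR late against RMA-KR intermediate. With betaPrior these were 2, 1, 2, 0, 35, 3 and 33. All were higher except 1 of the 3 in RMA-KR intermediate against RMA-KR early. In the same order, DESeq2 by default called 66, 147, 25, 338, 1034, 488 and 280 of all genes. With betaPrior it called 24, 99, 21, 234, 771, 365 and 170 of all genes. Without the filter on low counts edgeR called 13, 9 and 5 in these 3 comparisons with control, 57 in RMA-KR late against control, 4 in RMA early against RMA-KR early, 57 in RMA intermediate against RMA-KR intermediate, 53 in RMA intermediate against RMA early, 9 in RMA-KR intermediate against RMA-KR early, 51 in RMA-KR late against RMA-KR intermediate and 2 in the difference of the changes from early to late. Of these, 1 in RMA-KR early and 1 in RMA-KR intermediate against control, 2 in RMA early against RMA-KR early, 6 in RMA-KR intermediate against RMA-KR early and both in the difference were lower. Without this filter edgeR called 88, 110, 56, 394, 188, 272, 617, 369, 263 and 115 of all genes, in the same order. With at least 10 counts in every library, which left 25 of the 60 genes to test, it called 23, 23 and 19 of these 25 in RMA intermediate, RMA late and RMA-KR late against control and 0 in RMA-KR intermediate against RMA-KR early. With only the groups compared it called 47 in RMA intermediate against RMA-KR intermediate, 4 in RMA intermediate against RMA early and 0 in RMA-KR intermediate against RMA-KR early. Without the libraries low in immediate early genes it called 17 in RMA-KR late against control, 10 in RMA intermediate against RMA-KR intermediate, 0 in RMA-KR intermediate against RMA-KR early and 4 in RMA-KR late against RMA-KR intermediate. The cause was not tested. For the 10-count filter, the compared groups alone, the replicate block and the libraries left out, counts over all genes are not given here. The counts of the 60 genes under these settings therefore do not show whether calls over all genes moved as well.

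Same-numbered libraries showed little shared deviation (64 pairs, correlations of -0.118 to 0.202, 3 over 0.1). In 181 pairs of unlike number the correlations were -0.229 to 0.181, with 10 over 0.1. Pairing by number was thus not detected, and such correlations cannot exclude it. With the replicate block edgeR called 20 in RMA-KR late against control, 14 in RMA intermediate against RMA-KR intermediate, 0 in RMA-KR intermediate against RMA-KR early and 6 in RMA-KR late against RMA-KR intermediate.

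Leaving out 1 library at a time gave 0 to 3 genes in RMA early, 28 to 41 in RMA intermediate, 27 to 41 in RMA late and 13 to 33 in RMA-KR late against control. It gave 0 to 5 in RMA early against RMA-KR early, 14 to 21 in RMA intermediate against RMA-KR intermediate, 3 to 21 in RMA intermediate against RMA early, 0 to 1 in RMA-KR intermediate against RMA-KR early, 7 to 21 in RMA-KR late against RMA-KR intermediate and 0 to 1 in the difference of the changes. The log2 fold change of Cdc25b in RMA-KR late ranged from -0.0347 to 0.41, and it was -0.01 without control 3. The share of promoters with TTTGAA was 38.5% in the bases before the start alone.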
